A study of Mus musculus with 16 samples.

Results

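Heterotrimeric G proteins carry the signal of G protein-coupled receptors into the cell, and the genes of 10 of their subunits are described here: the alpha subunit genes Gnas, Gnai1, Gnai2, Gnai3, Gnaq and Gna11, and the beta subunit genes Gnb1, Gnb2, Gnb4 and Gnb5. They were taken by gene symbol, with earlier results of these data known, and all 10 were found among the 38933 genes measured in cortical bone and among the 21011 measured in skeletal muscle. Bulk RNA-seq covered 16 libraries from female C57BL/6 mice that were 18 months old when treatment started. The mice received either BAY2416964 (BAY), an inhibitor of the aryl hydrocarbon receptor (AhR), at 30 mg/kg or its vehicle of ethanol, Solutol and water (VEH), both by oral gavage on 5 days per week for 8 weeks. Cortical bone shafts and the tibialis anterior, a leg muscle, gave 4 VEH and 4 BAY libraries each. No group carried a genetic change, and the untreated state was not among the groups. The bone shafts had been digested with collagenase after marrow stromal cells were taken from them.

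A resting G protein is a trimer in which an alpha subunit bound to GDP sits on a dimer of beta and gamma subunits. An activated receptor makes the alpha subunit exchange GDP for GTP, and alpha and the beta-gamma dimer then act on their own targets until the alpha subunit hydrolyses its GTP. The alpha subunit sets the pathway: Gs, from Gnas, stimulates adenylyl cyclase, the Gi proteins, from Gnai1, Gnai2 and Gnai3, inhibit it, and the Gq family, from Gnaq and Gna11, activates phospholipase C beta. In bone, Gs relays the parathyroid hormone receptor, and in skeletal muscle it relays beta-adrenergic receptors.

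The alpha subunits touch the receptor with their C-terminal end, so the last 30 coding bases of each alpha gene, stop codon included, are shown here to set the members apart. Each was read on the coding strand of the GRCm39 genome, the build of the deposited data, and capitals mark bases that differ from Gnai2, taken as the reference.
Gnai2 (chr9:107492834-107492863, minus strand): aacaacctgaaggactgtggcctcttctga
Gnai1 (chr5:18472017-18472046, minus strand): aaTaacctAaaAgactgtggTctcttctAa
Gnai3 (chr3:108016738-108016767, minus strand): aacaacTtAaaggaAtgtggGctTtATtga
Gnaq (chr19:16360729-16360758, plus strand): CTGaacctgaaggaGtACAATctGGtctAa
Gna11 (chr10:81366629-81366658, minus strand): CTGaacctgaaggaGtACAAcctGGtGtga
Gnas (chr2:174188152-174188181, plus strand): aTGCaTctCCGCCaAtACgAGctGCtctAa
Gnai1 differed from Gnai2 at 5 of the 30 bases and Gnai3 at 7, against 11 for Gna11, 12 for Gnaq and 17 for Gnas. Over the whole coding sequence, Gnai1 was identical to Gnai2 at 78.7% of aligned bases and to Gnai3 at 78.2%, and Gnaq to Gna11 at 80.5%. Gnb1, Gnb2 and Gnb4 were identical to each other at 75.6% to 77.0%, while Gnb5, which pairs with RGS proteins rather than gamma subunits in many cells, was identical to them at no more than 61.1%. Reads could nonetheless be told apart between members: of the stretches of 50 bases in their transcripts, 3 in Gnb4 and 3 in Gnaq also occurred in another member, and none in the other genes.

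Stretches shared with genes outside the family were more frequent for some members. In Gnb4, 35.4% of the 50-base stretches also lay in another gene, mostly Mfn1, which overlaps it on the opposite strand over 5448 exon bases. The share was 16.1% for Gnb2, mostly with Gigyf1, and 8.16% for Gnas, all with the antisense gene Gnasas1. It was 5.82% for Gnai2, 5.75% for Gnai3 and 5.15% for Gnb5, each mostly with an opposite-strand lncRNA gene. The study's methods name a library kit that keeps strand. The sources used here do not state whether strand was used in counting, so the levels of Gnb4, Gnb2 and Gnas may hold reads of these neighbours.

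The values are CPM, reads scaled to the same total in every library. Skeletal muscle libraries held 6131914 to 9262375 reads counted on genes and cortical bone libraries 930308 to 6951904. The muscle libraries matched their label, with 118362 to 196167 CPM in 12 muscle fibre marker genes. The bone libraries varied in what they held: 12 osteoblast and osteocyte genes, all detected in every library, summed to 22376 to 30403 CPM in VEH3, VEH4 and BAY3, to 7262 CPM in VEH1 and to 1530 to 2313 CPM in the other 4. The 12 muscle fibre genes summed to 10124 CPM in VEH1, 38851 CPM in BAY1 and 42188 CPM in BAY2, against 54.6 to 1478 CPM in the other bone libraries. Olfactory receptor genes, which are silent in most tissues outside the nose, had a median of 0.0303 CPM per kilobase of exon in VEH1 but 1.23 to 8.5 in the other 7 bone libraries, and 0.0284 to 0.0679 in muscle. This level is used below as the background of each library. It rests on 1353 olfactory receptor genes in the bone table and only 43 in the muscle table, so it is not a like measure in both tissues. Of the 80 values of the 10 members in bone, 29 were at or under it, among them 8 of 10 in VEH2 and 10 of 10 in BAY4, and in muscle none was.

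In skeletal muscle a single subunit stood above the rest. Gnas, which encodes the alpha subunit of Gs, had 34.2 ± 4.49 CPM per kilobase of exon (SD, n = 8 libraries of both treatments) and made up 57.4% ± 1.96 (SD, n = 8) of the summed level of the 10 genes. It was the highest member in 8 of 8 libraries, where its share ran from 55.7% to 61.9%. Gnai2 was next at 7.15 ± 0.719 CPM per kilobase and 12.05% ± 0.916 of the sum, and it was above Gna11, at 5.10 ± 0.745 CPM per kilobase, in 8 of 8 libraries. Gna11 and Gnb2, at 4.46 ± 0.755 CPM per kilobase, were close neighbours, with Gna11 the higher in 6 of 8 libraries.

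The lower members of muscle followed with Gnb1 at 2.70 ± 0.522, Gnaq at 1.90 ± 0.206, Gnai3 at 1.78 ± 0.479 and Gnb5 at 1.368 ± 0.153 CPM per kilobase (SD, n = 8). Gnb1 was above Gnaq in all 8 libraries, and Gnaq above Gnai3 in 4 of 8, so this neighbouring pair was not separated. Those 4 libraries were the BAY libraries: Gnai3 was the higher of the pair per kilobase in 4 of 4 VEH and in 0 of 4 BAY libraries. With the longest transcript as length Gnai3 was the higher in 2 of 4 VEH libraries, and with the coding length Gnaq led in VEH, at 12.1 ± 1.11 against 6.57 ± 1.002 CPM per kilobase (SD, n = 4). Gnb4, at 0.635 ± 0.172, and Gnai1, at 0.205 ± 0.245 CPM per kilobase of exon, came last, and Gnai1 was the only member that was not over 3 times the background in every muscle library. With the coding length Gnb4, at 9.98 ± 2.71, was above Gnai3, at 5.46 ± 1.47 CPM per kilobase, in 7 of 8 libraries.

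By alpha class, Gs made up 67.8% ± 1.86 of the summed level of the 6 alpha members in muscle, Gi 18.3% ± 1.85 and the Gq pair 13.9% ± 0.585 (SD, n = 8). Alpha genes outside the members, such as Gna13 at 22.2 CPM and Gna12 at 17.1 CPM, are not in this sum. Among the beta genes Gnb2 held 48.5% ± 4.01, Gnb1 29.5% ± 4.15, Gnb5 15.0% ± 1.54 and Gnb4 6.96% ± 1.89 per kilobase of exon. The order of Gnb5 and Gnb4 turned with the coding length, where Gnb4, at 9.98 ± 2.71 CPM per kilobase, was above Gnb5 by mean level. Gnb2 was above Gnb1 per kilobase of exon in 8 of 8 muscle libraries, but with the coding length Gnb1 was the higher in 6 of 8, at 22.2 ± 4.29 against 20.5 ± 3.47 CPM per kilobase. The summed level of the alpha members per kilobase of exon was 5.51 ± 0.463 times that of the beta members. This ratio moves with the length used: per kilobase of coding sequence Gnas had 121 and Gnb1 22.2 CPM, against 34.2 and 2.70 per kilobase of exon.

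Cortical bone had no such leader. Gnai2, at 21.5 ± 17.7 CPM per kilobase, and Gnas, at 15.4 ± 4.58, took 24.5% ± 10.03 and 22.3% ± 8.76 of the summed level (SD, n = 8), and Gnai2 was the higher of them in 5 of 8 libraries. Gnai3 at 8.02 ± 4.55, Gnb1 at 7.07 ± 4.47, Gnb2 at 6.91 ± 4.07, Gna11 at 6.40 ± 2.47 and Gnaq at 5.01 ± 2.19 CPM per kilobase followed within their spread. Gnb4 had 3.17 ± 1.94, Gnai1 1.61 ± 0.819 and Gnb5 1.43 ± 0.856 CPM per kilobase. Over the background of its own library, Gnas and Gna11 lay in 7 of 8 bone libraries, Gnai2, Gnai3, Gnaq, Gnb1 and Gnb2 in 6, Gnb4 in 3, and Gnb5 and Gnai1 in 2.

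Among the 6 alpha members in bone, Gi made up 49.1% ± 12.9, Gs 29.5% ± 10.8 and the Gq pair 21.4% ± 7.52 per kilobase of exon (SD, n = 8). Other alpha genes, such as Gna13 at 55.3 CPM and Gnao1 at 47.2 CPM, are outside this sum. No background was taken off, and 29 of the 80 member values in bone were at or under it. With the longest transcript Gnas took 34.9% of the summed level of the 10 genes, and Gnai2, Gnai3 and Gnai1 took 21.8%, 6.00% and 1.79%. Gnb1 and Gnb2 had similar parts of the beta level, at 36.2% ± 9.16 and 36.4% ± 11.9, and Gnb1 was the higher in 3 of 8 libraries. This depended on the length used: per kilobase of coding sequence Gnb1 had 58.2 ± 36.8, Gnb4 49.7 ± 30.5 and Gnb2 31.8 ± 18.7 CPM. The summed level of the alpha members per kilobase of exon was 3.12 ± 0.537 times that of the beta members. This ratio also moves with the length used, since per kilobase of coding sequence Gnas had 54.3 CPM, near Gnb1 and Gnb4. The tables of both tissues were normalized separately and RNA was extracted by different methods, so these shares stand side by side and were not tested between tissues.

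**Figure D1:**
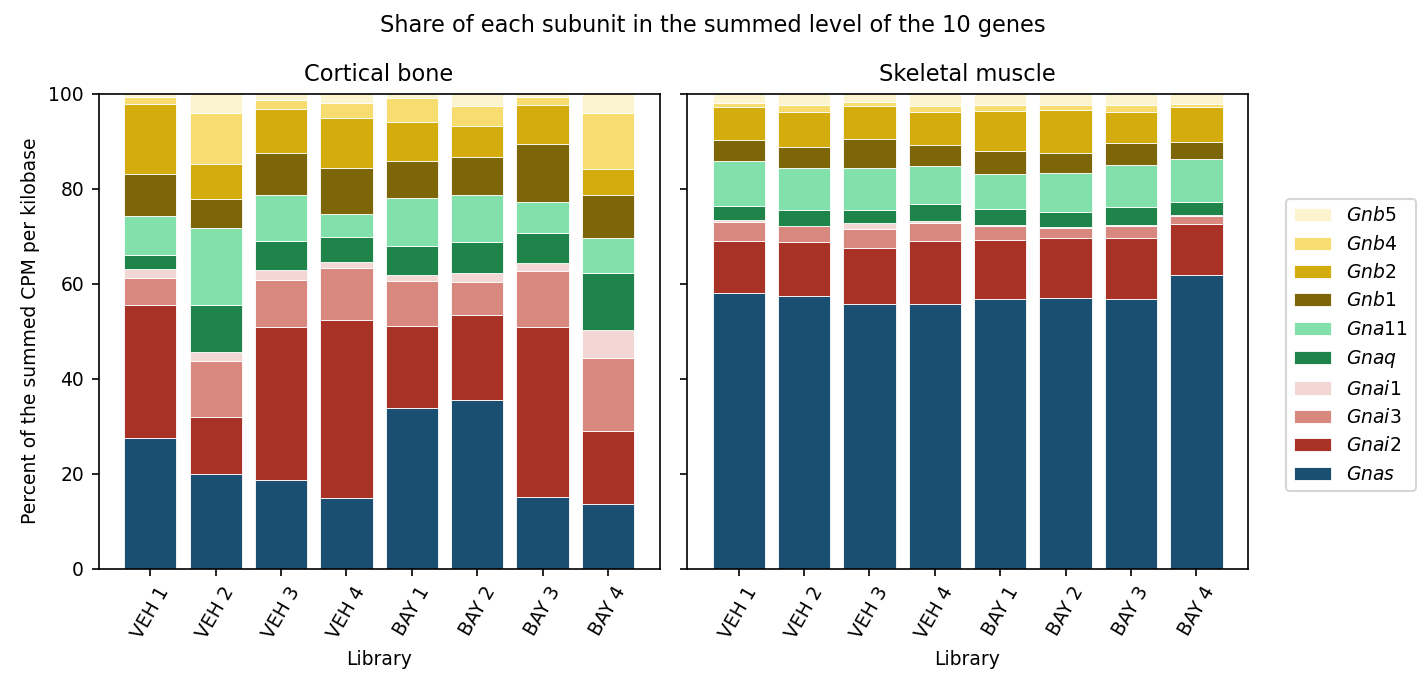
Stacked bars give the share of each of the 10 subunit genes, in percent of their summed CPM per kilobase of exon, for the 8 cortical bone libraries (left) and the 8 skeletal muscle libraries (right). Gnas (dark blue) takes 55.7% to 61.9% in every muscle library, while in bone Gnas and Gnai2 (dark red) exchange the lead between libraries. Both lie under the olfactory receptor background of bone BAY4, Gnas at 0.811 and Gnai2 at 0.93 times it, and Gnai2 under that of bone VEH2, at 0.956 times.

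The length used for a gene moved this order. The Gnas locus has several alternative first exons, and its exons together span 12003 bases, so its level per kilobase is lower than with a single transcript. With the longest transcript in place of all exons, Gnas took 71.9% ± 1.59 of the summed level in muscle and 34.9% ± 11.2 in bone, where it then led Gnai2 in 6 of 8 libraries. With the coding length alone the share of Gnas was 49.1% ± 2.36 in muscle and 16.01% ± 6.83 in bone. By mean level in bone Gnas, at 54.3 CPM per kilobase, then came after Gnai2 at 87.9 and Gnb1 at 58.2. Gnb1 was above Gnas in 4 of 8 bone libraries, and its mean share, 14.5%, was under that of Gnas. Gnas was first in muscle with each of these lengths.

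Composition moved with the bone libraries. In VEH3, VEH4 and BAY3, which held the most osteoblast and osteocyte RNA, Gnai2 had 153, 214 and 184 CPM, and in the other 5 bone libraries it had 28.5 to 59.98 CPM. Genes that mark neutrophils summed to 532, 2094 and 1192 CPM in those 3 libraries and to 63.5 to 211 CPM in the others, and 7 osteoclast genes to 791 to 1097 against 102 to 255 CPM. All 8 listed neutrophil genes and all 7 listed osteoclast genes were detected in every bone library. Gnai3, Gnas, Gnaq, Gnb1 and Gnb2 also had their 3 highest CPM values in those libraries. Gnas was above Gnai2 per kilobase of exon in VEH2, BAY1 and BAY2, of which BAY1 and BAY2 held the most muscle fibre RNA of the bone libraries and VEH2 had 274 CPM of it. The part of cell make-up in these levels was not tested, and in bulk tissue fewer cells of a type and less RNA per cell cannot be told apart.

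BAY was compared with VEH to ask whether subunit levels differed with AhR inhibition. The study's thresholds were kept for calling a gene, an unadjusted P value under 0.05 together with a difference of 2-fold or more. The fit was a different one: limma, a linear model fitted over all genes of the tissue, on the deposited log2 values. The calls and shares of all genes given here are therefore not those of the study. With voom on recovered reads, an alternative fit, 3.33% of all muscle genes and 3.68% of all bone genes passed both thresholds. In skeletal muscle 0 of the 10 members were called, where 2.43% of all genes were, and 1 of 10, Gnai3, was under an unadjusted P value of 0.05, where 9.79% of all genes were, or 13.0% of those that averaged 1 CPM or more, as every member did. The share of members is thus near that of all genes. The smallest adjusted P value of a member, over all genes of the tissue, was 0.381 in limma. That of any muscle gene was 0.184, so no gene of the tissue was under 0.05 after adjustment. The VEH and BAY values did not overlap for Gnai3 and Gnaq, or 2 of 10 members, against 5.73% of all genes and 6.92% of those that averaged 1 CPM or more.

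Gnai3 encodes a Gi alpha subunit that inhibits adenylyl cyclase and also takes part in membrane trafficking and cell division. It lies on chromosome 3 from 108014596 to 108053463 (ENSMUSG00000000001). In muscle it had 7.10, 6.83, 8.96 and 6.44 CPM in VEH1 to VEH4 and 5.92, 4.4, 5.29 and 3.79 CPM in BAY1 to BAY4. The lowest VEH value was above the highest BAY value, and the means were 7.33 ± 1.12 and 4.85 ± 0.942 CPM (SD, n = 4). These rest on 49 to 83 reads per VEH library and 27 to 43 per BAY library. The estimated log2 fold change was -0.61 (SE 0.21), with a 95% interval from -1.06 to -0.15, a 1.52-fold decrease, which is under the fold threshold. The unadjusted P value was 0.0123 and the adjusted one 0.381 in limma, and the two-sided exact permutation test gave P = 0.0286, the lowest value possible with 4 against 4 libraries. Over 17 other ways of processing, the log2 fold change ran from -0.71 to -0.48, with unadjusted P values from 0.0022 to 0.033 and adjusted ones from 0.185 to 0.679 in limma. Thus Gnai3 fell at the unadjusted threshold in each of them, and in none after adjustment.

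Neither of the other Gi genes of muscle passed the test, and their difference from Gnai3 was not tested. Gnai2, the main Gi alpha gene of most tissues, had 25.1, 28.7, 33.8 and 29.3 CPM in VEH1 to VEH4 and 31.8, 34.4, 32.9 and 32.7 CPM in BAY1 to BAY4. Of the BAY values 3 lay inside the VEH range and BAY2 lay above it, with a log2 fold change of 0.18 (SE 0.12, unadjusted P = 0.169 in limma). Gnai1, an alpha gene known best from brain, had 0.815, 0.418, 4.86 and 1.55 CPM in the VEH libraries and 0.55, 0.489, 0.387 and 0.982 CPM in the BAY libraries. Its VEH mean came mostly from VEH3, with 45 reads against 3 to 13 in the other 7 libraries. The log2 fold change of Gnai1 was -1.16 (SE 0.73, unadjusted P = 0.134 in limma) and -0.52 without VEH3.

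VEH3, whose data column carries the word replacement, also stood apart in markers of other cells. Its 7 adipocyte genes summed to 328 CPM against 38.6 to 56.3 CPM in the other muscle libraries, and its 5 tendon genes to 127 against 25.4 to 62.3 CPM. The 6 osteoblast and osteocyte genes in the muscle table summed to 159 CPM there and to 33.3 to 55.9 CPM elsewhere. Of these lists, 4, 2 and 2 genes were listed at 0 in some libraries. Their part in the Gnai1 values was not tested. Without VEH3, 3 of 10 members were under 0.05, where 9.79% of all genes were. The log2 fold change was then -0.51 for Gnai3 (unadjusted P = 0.0317 in limma), 0.25 for Gnai2 (0.0387) and 0.35 for Gnb2 (0.0327). Without BAY3 there were 2, Gnai3 and Gnb2, where 8.27% of all genes were under 0.05. The log2 fold change of Gnb2 was then 0.39 (unadjusted P = 0.021 in limma). Without VEH2 there were also 2, as Gnai1 was then called, where 10.3% of all genes were under 0.05 and 2.64% were called. Its log2 fold change was -1.69 (unadjusted P = 0.0306 in limma).

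As a share of the summed Gi level per kilobase, Gnai3 took 26.03%, 23.1%, 23.5% and 21.2% in VEH1 to VEH4 and 19.0%, 13.9%, 16.9% and 12.6% in BAY1 to BAY4. The share of Gnai2 was 69.5% to 76.1% in VEH and 80.0% to 85.5% in BAY libraries. Neither share overlapped between the groups. This quantity holds the Gnai3 values already given and is no separate evidence. In bone the share of Gnai3 was 26.6% ± 13.3 in VEH and 31.2% ± 8.26 in BAY libraries (SD, n = 4), and the groups overlapped.

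**Figure D2:**
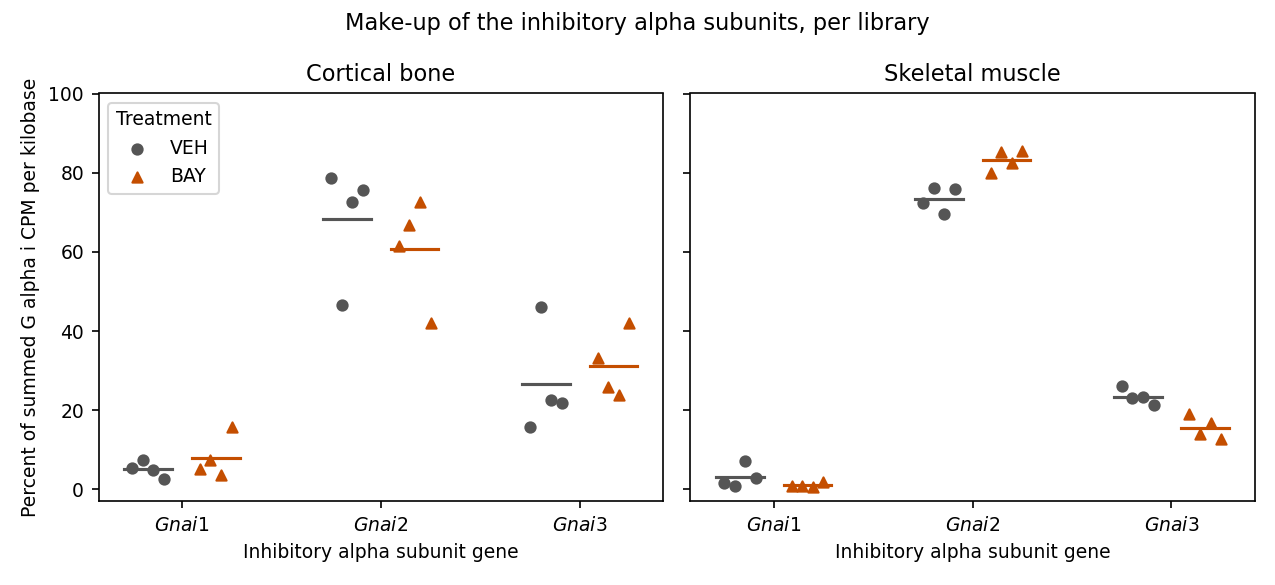
Points give the percent of the summed CPM per kilobase of Gnai1, Gnai2 and Gnai3 that each gene takes in each library, in cortical bone (left) and skeletal muscle (right), with VEH as grey circles, BAY as orange triangles and short lines at the mean of 4 libraries. In muscle Gnai3 lies at 21.2% to 26.03% in VEH and 12.6% to 19.0% in BAY, and in bone the groups overlap.

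Gnaq, which encodes the alpha subunit of Gq, had 11.4, 14.2, 13.1 and 13.5 CPM in muscle of VEH1 to VEH4 and 14.6, 14.4, 16.8 and 14.4 CPM in BAY1 to BAY4. Every BAY value was above every VEH value, though the highest VEH library, at 14.2 CPM, and the lowest BAY library, at 14.4 CPM, were close (exact permutation P = 0.0286, two-sided). The log2 fold change was 0.21 with a 95% interval from -0.09 to 0.51, and it did not pass limma's threshold (unadjusted P = 0.161, adjusted P = 0.656). Gna11, its close relative, had 22.3, 23.0, 26.8 and 17.9 CPM in VEH and 19.95, 23.5, 23.2 and 28.5 CPM in BAY libraries, which overlapped (log2 fold change 0.08, unadjusted P = 0.603 in limma).

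Gnas had 361, 399, 439 and 338 CPM in VEH1 to VEH4 of muscle and 402, 425, 399.9 and 517 CPM in BAY1 to BAY4. The groups overlapped, with BAY4 the highest library, and the means were 384 ± 44.3 and 436 ± 55.2 CPM (SD, n = 4). The log2 fold change of the leading subunit was 0.18 with a 95% interval from -0.13 to 0.49 (unadjusted P = 0.233 in limma), so a 2-fold change in either direction lay outside the interval. The share of Gs in the summed level of the 6 alpha members was 66.8% ± 1.10 in VEH and 68.8% ± 2.06 in BAY libraries (SD, n = 4).

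Among the beta genes of muscle the groups overlapped for all 4. Gnb2, the leading one per kilobase of exon but not of coding sequence, had 19.2, 22.6, 24.2 and 18.6 CPM in VEH and 26.01, 29.7, 20.5 and 27.2 CPM in BAY libraries, with BAY3 alone inside the VEH range (log2 fold change 0.29, unadjusted P = 0.0766 in limma). Gnb1 had 19.9, 22.7, 34.0 and 19.9 CPM in VEH and 24.4, 22.5, 23.7 and 21.0 CPM in BAY libraries. Its VEH3 value was the highest and its log2 fold change was -0.04 (unadjusted P = 0.813 in limma). Gnb4 and Gnb5 had log2 fold changes of 0.23 and 0.22, and limma gave unadjusted P values of 0.348 and 0.278. For Gnb4 the CPM ran from 6.29 to 13.2 in VEH and from 7.85 to 13.8 in BAY libraries, and for Gnb5 from 3.96 to 5.17 and from 5.12 to 5.69.

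**Figure D3:**
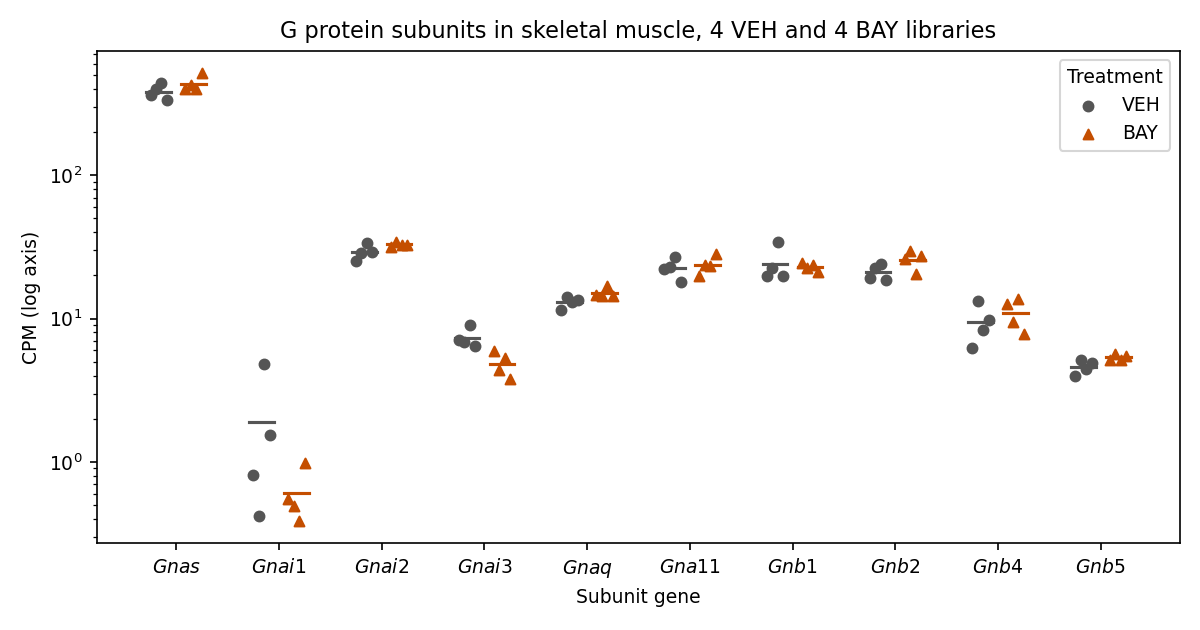
Points give the CPM of each subunit gene in each skeletal muscle library on a log axis, with VEH as grey circles, BAY as orange triangles and short lines at the mean of 4 libraries. For Gnai3 the 4 VEH points, from 6.44 to 8.96 CPM, lie above the 4 BAY points, from 3.79 to 5.92 CPM, and for Gnai1 a single VEH point lies at 4.86 CPM.

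In cortical bone 0 of 10 members were called, where 0.640% of all genes were, and 0 of 10 were under an unadjusted P value of 0.05 by limma, where the share was again 0.640%, or 0.231% of the genes that averaged 1 CPM or more. The groups overlapped for every member, while 0.406% of all genes, and 0.291% of those that averaged 1 CPM or more, had no overlap. The smallest adjusted P value of a member was 0.887 in limma, which was also the smallest of all genes. The counts of members called or under 0.05 were also 0 without VEH1, BAY1 and BAY2, the libraries with muscle fibre RNA, where 0.606% of all genes were called, a setting chosen after seeing the data.

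Bone values spread several-fold within a group. Gnas had 162, 132, 244 and 233 CPM in VEH1 to VEH4 and 205, 202, 215 and 82.8 CPM in BAY1 to BAY4. Its BAY4 value was the lowest of the 8, from the shallowest library, and the log2 fold change was -0.18 with a 95% interval from -1.35 to 0.99 (unadjusted P = 0.745 in limma). Gnai2 had 59.98, 28.5, 153 and 214 CPM in VEH and 38.0, 36.8, 184 and 34.4 CPM in BAY libraries, so that 1 BAY library reached the level of the upper VEH libraries. Its log2 fold change was -0.67 with a 95% interval from -2.31 to 0.98 (unadjusted P = 0.397 in limma).

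Gnb2 had the lowest log2 fold change of the members in bone, -0.89 with a 95% interval from -2.26 to 0.49 (unadjusted P = 0.186 in limma). Its CPM were 38.3, 21.2, 53.9 and 73.5 in VEH and 21.9, 16.1, 51.4 and 15.0 in BAY libraries, and the BAY3 value lay among the upper VEH values. Gnb1 had 37.7, 29.5, 83.6 and 109 CPM in VEH and 34.0, 32.7, 126 and 39.8 CPM in BAY libraries, with the highest value in BAY3 (log2 fold change -0.22). Gnb4 had 12.1, 94.8, 32.6 and 63.3 CPM in VEH and 40.7, 33.1, 32.6 and 96.7 CPM in BAY libraries. Its highest values came from VEH2 and BAY4, where it was under the background, at 0.862 and 0.71 times that level.

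For the other members of bone the log2 fold changes were -0.45 for Gna11, -0.39 for Gnb5, -0.18 for Gnai3, 0.04 for Gnai1 and 0.05 for Gnaq, with unadjusted P values from 0.455 to 0.964 in limma. Gnai3, the member that fell at the unadjusted threshold in muscle, had 9.49, 22.1, 37.2 and 48.8 CPM in VEH and 16.1, 11.2, 47.4 and 26.9 CPM in BAY libraries of bone. Its 95% interval in bone ran from -1.73 to 1.36, which holds the muscle value. Whether the difference itself differed between the tissues was not tested, since the tables were normalized separately.

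Over all genes in bone the log2 fold changes had a median of 0.84, and all 10 members lay below it, with a median of -0.20. The size of that shift rested on single libraries: the median of all genes was -0.09 without VEH1 and 1.52 without VEH2, and all 10 members lay below it in both cases. It was 0.27 without the libraries rich in muscle fibre RNA, where Gnai1 lay above it, and -0.33 with array weights, where Gnb1, Gnai2 and Gnas did. With all 8 libraries the log2 fold change was above 0 for 3 of 10 members and for 80.9% of all genes. Relative to the median of 0.84 the members’ differences ran from -1.73 for Gnb2 to -0.63 for Gnb4. When libraries were centred on their medians, the log2 fold changes of Gnb4, Gnai1 and Gnaq turned from above to below 0, at -0.64, -0.81 and -0.80, and none of these values passed the test. The olfactory receptor background was 0.0303 to 6.86 CPM per kilobase in VEH and 2.30 to 8.5 in BAY libraries, and its part in the shift was not tested. In muscle the median of all genes was 0.06 and that of the members 0.18, with 7 of 10 above 0 where 55.2% of all genes were.

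**Figure D4:**
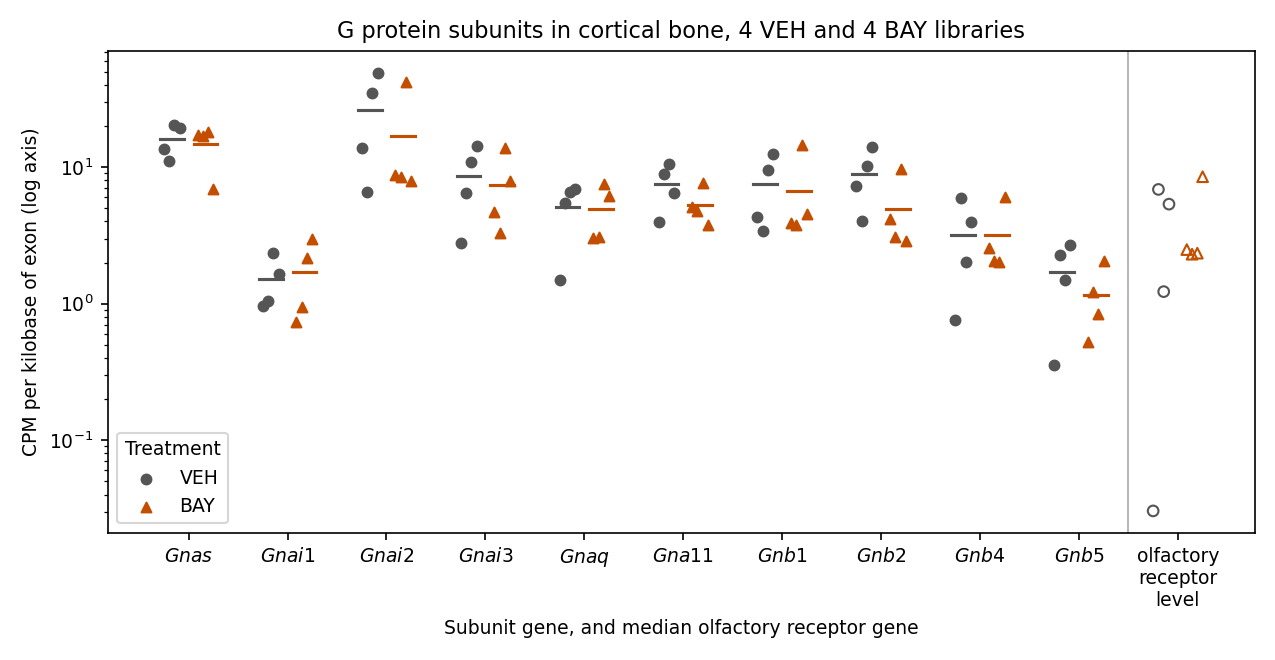
Points give CPM per kilobase of exon of each subunit gene in each cortical bone library on a log axis, with VEH as filled grey circles, BAY as filled orange triangles and short lines at the mean of 4 libraries. Open symbols at the right give the median olfactory receptor gene of the same libraries, from 0.0303 in VEH1 to 8.5 in BAY4. At or under the level of their own library lie 5 of the 8 points of Gnb4 and 6 of the 8 points each of Gnai1 and Gnb5.

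**Figure D5:**
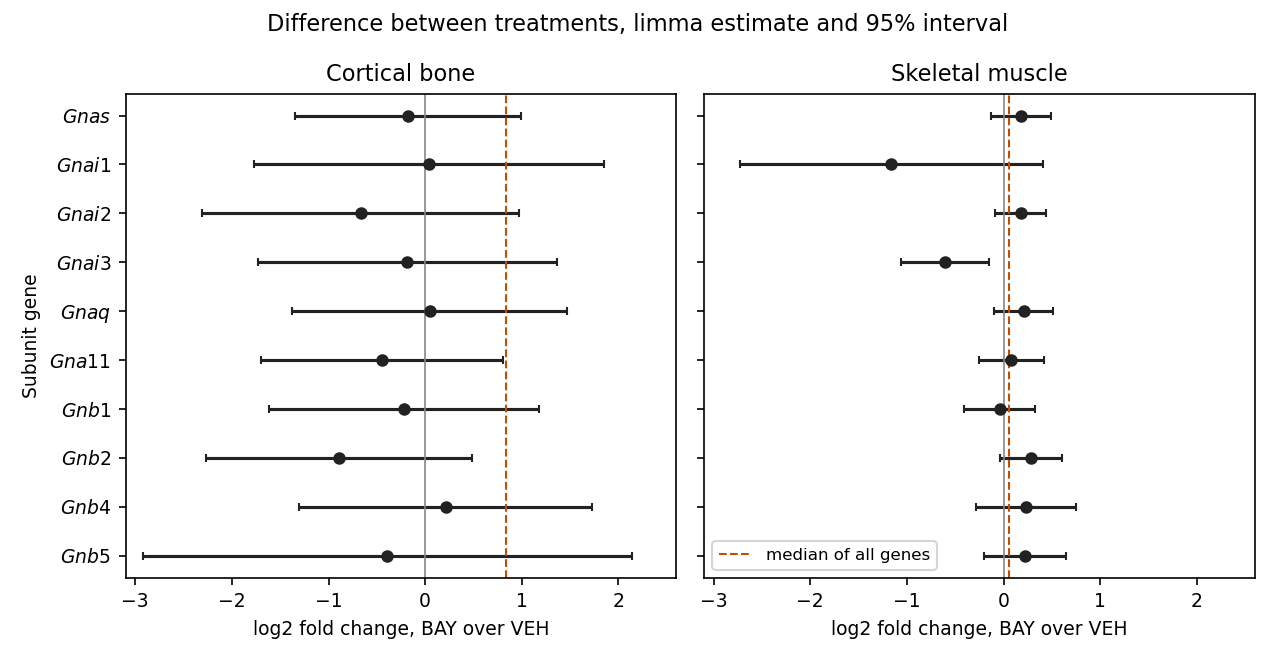
Points give limma's log2 fold change of BAY over VEH with its 95% interval for each subunit gene in cortical bone (left) and skeletal muscle (right), and dashed lines the median of all genes, at 0.84 and 0.06. The interval lies wholly on one side of 0 for Gnai3 in muscle, from -1.06 to -0.15, and for no gene in bone.

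The genes around the subunits were counted from fixed lists of gamma subunits, other alpha and beta genes, RGS proteins and chaperones, adenylyl cyclases and protein kinase A, phospholipase C beta and channels, and receptors. In muscle 90 of these genes were in the table, and 2 were called higher and 1 lower in BAY, against 1.33% and 1.09% of all genes. At an unadjusted P value under 0.05, 10 were higher and 2 lower, against 6.71% and 3.07% of all genes. The median log2 fold change of the 90 was 0.05 and that of all genes 0.06. The called genes, Gng4, Kcnj6 and Ptger3, all had a mean under 1 CPM. With voom on recovered reads, 3.33% of all genes passed both thresholds. Gng3 (log2 fold change 1.65, unadjusted P = 0.0334 in voom), Gng8 (1.95, 0.0261) and Rgs11 (1.48, 0.0457) then also passed higher, and Rgs16 lower (-1.99, 0.0388), each with a mean under 1 CPM.

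The RGS proteins shorten G protein signals by speeding GTP hydrolysis on Gi and Gq alpha subunits. Of the 21 RGS and chaperone genes in the muscle table, 2 were higher at an unadjusted P value under 0.05 and 0 were lower. Rgs3 had 10.3, 10.8, 11.05 and 11.2 CPM in VEH and 17.4, 15.1, 14.1 and 14.2 CPM in BAY libraries, without overlap. Its log2 fold change was 0.48 (SE 0.14, unadjusted P = 0.00418, adjusted P = 0.319 in limma). Among 15 adenylyl cyclase and protein kinase A genes, which act below Gs and Gi, 3 were higher and 0 lower, again beside 6.71% and 3.07% of all genes. Adcy4, a cyclase that beta-gamma dimers stimulate, had 4.42, 5.02, 4.43 and 3.70 CPM in VEH and 8.26, 4.73, 8.13 and 6.03 CPM in BAY libraries, with BAY2 inside the VEH range (log2 fold change 0.60, unadjusted P = 0.0212 in limma).

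Among the 6 phospholipase C beta and channel genes, the targets of Gq and of beta-gamma, 2 were higher. Plcb3 had 11.5, 13.1, 12.2 and 10.1 CPM in VEH and 14.2, 13.5, 14.2 and 17.8 CPM in BAY libraries, without overlap (log2 fold change 0.34, unadjusted P = 0.0402 in limma). Of 11 receptors coupled to Gs, 2 were higher, and of 9 coupled to Gi, 2 were lower, while of 9 coupled to Gq none passed in either direction, where 6.71% of all genes were higher and 3.07% lower. These are few genes per list, 1 of the lower ones (Ptger3) averaged under 1 CPM, and differences between the receptor classes were not tested. Crhr2, a Gs-coupled receptor for urocortins that is abundant in muscle, had 18.6, 23.3, 19.97 and 23.9 CPM in VEH and 29.2, 29.2, 32.4 and 23.0 CPM in BAY libraries, where BAY4 lay within the VEH range (log2 fold change 0.40, unadjusted P = 0.0141 in limma). Adora1, the Gi-coupled adenosine A1 receptor, had 19.1, 19.4, 17.1 and 16.02 CPM in VEH and 16.25, 16.5, 9.24 and 12.9 CPM in BAY libraries, with BAY1 and BAY2 within the VEH range (log2 fold change -0.42, unadjusted P = 0.041 in limma). None of these had an adjusted P value under 0.05.

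In the lists where no gene averaging 1 CPM or more passed, the smallest P values among genes of that level belonged to Gna12, an alpha subunit gene, Gng5, a gamma subunit gene, and Agtr1a, the Gq-coupled angiotensin receptor. Their log2 fold changes in muscle were 0.37, -0.30 and -1.02, and limma gave unadjusted P values of 0.0616, 0.136 and 0.123. For Gna12 the CPM ran from 10.5 to 18.5 in VEH and from 17.5 to 21.2 in BAY libraries. Gng5 had 24.7 to 49.1 CPM in VEH, with VEH3 the highest, and 23.0 to 29.5 CPM in BAY libraries. For Agtr1a the range was 1.16 to 1.67 and 0.281 to 1.94 CPM.

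In bone 100 genes of these lists were in the table, and 0 were called higher and 1 lower in BAY, against 0.545% and 0.0950% of all genes. The called gene was Gng10, a gamma subunit gene, with 3.20, 2.76, 3.54 and 7.28 CPM in VEH libraries and 2.17 CPM in BAY3, while BAY1, BAY2 and BAY4 were at or next to 0. Pth1r, the Gs-coupled parathyroid hormone receptor of osteoblasts and osteocytes, had 31.1, 13.8, 96.0 and 88.8 CPM in VEH and 12.5, 11.99, 65.7 and 10.8 CPM in BAY libraries (log2 fold change -1.28, unadjusted P = 0.139 in limma). Its 3 highest libraries were the 3 with the most osteoblast and osteocyte RNA. In the other lists the smallest unadjusted P values were 0.16 for Casr, 0.178 for Chrm2, 0.193 for Prkar2a, 0.195 for Gna14, 0.218 for Rgs10 and 0.298 for Kcnj6 in limma. The list counts of bone depend on the method. With voom on recovered reads, 3.68% of all genes passed both thresholds. List genes then passed higher in BAY, among them Casr (log2 fold change 2.46, unadjusted P = 0.0233 in voom), Chrm2 (2.39, 0.0272) and Gna14 (3.09, 0.0436). Gng10 was lower there too (-2.96, 0.0211).

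Protein-coding genes that averaged 10 CPM or more were ranked by how closely their log2(CPM + 1) followed the leading subunits per kilobase of exon over the 8 libraries of a tissue, as a description only, since all points share library composition and depth. In muscle, of 5281 genes, Des (Pearson's r 0.98) and Egln1 (0.968) were among the 3 closest to Gnas, and Csnk1g2 (0.955), Vps52 (0.937) and Ehmt2 (0.929) were the 3 closest to Gnb2. In bone, of 13155 genes, Ddost (0.996) and Ppic (0.995) were among the 3 closest to Gnai2, and Acly (0.996), Polr2a (0.991) and B2m (0.99) were the 3 closest to Gnb1, which led Gnb2 by mean level.

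AhR binds DNA at sites with the core GCGTG, which reads CACGC on the other strand. Promoter windows from RefSeq on GRCm38.p6, of equal length around each start, were matched for 8 of the 10 members, and the core was found in 7 of their 11 windows, against 32.4% of 32851 windows of all genes. The windows of Gnai3 and Gnb2 did not hold these letters, those of Gnb1, Gnb5, Gnai1, Gnaq and Gna11 did, and 2 of the 4 Gnas windows did. A match describes letters and not binding.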

How the data were processed

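RNA-seq libraries were made from cortical bone and tibialis anterior of 4 VEH- and 4 BAY-treated mice each, 1 library per mouse, grouped by their labels. After base trimming the authors aligned reads to mm39 with STAR (version 2.7.8a, per the submitters' processing notes), quantified Ensembl genes with Partek's E/M algorithm and deposited log2 values of CPM plus an offset, which the lowest values put at 0.0001 CPM in bone and 0.0004 CPM in muscle. Values were turned back to CPM, and the step of 1 read was read from low values: 81.1% to 88.3% of values up to 50 reads were whole within 0.02. The value of 3 reads, a limit for counting error alone, ran from 0.324 to 3.22 CPM.

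The treatments were compared within each tissue by limma (version 3.58.1, R version 4.3.3) on the deposited log2 values, through lmFit and a trended eBayes, with no filter and no covariate, two-sided, with Benjamini-Hochberg adjustment over all genes of the tissue. The log2 fold changes thus include the offset. Single members were also compared by an exact permutation over all 70 assignments. The study itself used limma-voom, with the same thresholds of P and fold change as here, 0.05 and 2. The fits were tested on simulated data. Levels per kilobase used the exon union of GENCODE M39 on GRCm39, which matched 98.9% and 99.4% of genes, and olfactory receptor genes (1353 in bone, 43 in muscle) gave the background. Other steps used Python (version 3.11.15), numpy (version 2.4.6), pandas (version 2.3.3), Biopython (version 1.88) and matplotlib (version 3.10.9).

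The members and the gene lists were chosen with earlier results of these data known. All 10 members are named. Of the other pathway genes, those called with a mean of at least 1 CPM are named, otherwise the gene of smallest P value of each list with that mean, and the called genes below it were named after their values were seen. The genes given with voom values were also chosen after these were seen. For the leading alpha and beta member of each tissue, the 3 genes of most similar pattern are given, apart from 2 that are not reported here. Markers are given as sums. Alternatives were log2(CPM + 1) and log2(CPM + 0.1), only genes averaging 1 CPM or more, median centring, quantile normalization, eBayes with no trend, voom on recovered reads, a block for the replicate number, array weights, each mouse left out, and in bone the background taken off. Leaving out bone libraries with over 5000 CPM of muscle fibre markers was added after seeing the data. P values measure the spread between mice of 1 experiment.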

Additional observations from a re-analysis of the deposited data

Results flagged for a closer look

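In 5 of the 40 groups of 4 libraries examined, the highest or lowest log2 value of a member lay far from the other 3, by its gap over the whole range of the group. For independent, normally distributed values about 1 such group in 20 would be flagged. These groups share libraries, so their count cannot be read against that rate. In bone, BAY3 was the highest BAY library for Gnai2 (gap over range 0.941, 184 CPM against 34.4 to 38.0 CPM) and Gnb1 (0.855, 126 CPM against 32.7 to 39.8 CPM). BAY3 also held 22376 CPM of osteoblast and osteocyte genes, against 1731 to 2313 CPM in the other BAY libraries, and the part of this in the values was not tested. BAY4, the shallowest library, was the lowest for Gnas (0.934, 82.8 CPM against 202 to 215 CPM), where its value was 0.811 times the background of that library. VEH1, the deepest bone library and the one with the lowest background, was the lowest VEH library for Gnaq (0.850, 11.1 CPM against 40.5 to 51.0 CPM).

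In muscle, BAY3 was the highest BAY library for Gnaq (0.896, 16.8 CPM against 14.4 to 14.6 CPM). The log2 fold change of Gnaq without BAY3 was 0.15.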

How the results depend on the processing

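The values of Gnai3 in muscle kept their direction and an unadjusted P value under 0.05 under all 17 alternatives, while no member passed after adjustment under any. In muscle 2 members were under 0.05 with log2(CPM + 1), where 10.3% of all genes were, the other being Gnai1 at -0.65. With each mouse left out, 0 to 1 members were called and 1 to 3 were under 0.05 in muscle, and none of either in bone. Of all genes, 2.13% to 2.70% were then called and 7.02% to 10.3% were under 0.05 in muscle. In bone 0.295% to 2.87% of all genes were called and as many were under 0.05. With quantile normalization 1 bone member was called and 1 was under 0.05, Gnb5 (-1.84, unadjusted P = 0.0337 in limma), where 1.81% of all genes were called and 1.88% were under 0.05. The share of Gnas was 34.9% in bone and 71.9% in muscle with the longest transcript, and 49.1% in muscle with the coding length.

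No member's bone value passed the test where its sign turned, and the cause was not tested. Signs turned for Gnb4 (median centring -0.64, quantile -0.0687, array weights -0.70, background off -1.65, muscle fibre libraries left out -0.0484), Gnai1 (median centring -0.81, quantile -0.0498, voom -0.00169, array weights -0.41, background off -1.44) and Gnaq (median centring -0.80, quantile -0.26, array weights -0.61, background off -0.55). They also turned for Gnb5 (voom 0.0897), Gnai3 (voom 0.0289, muscle fibre libraries left out 0.0598), Gnb1 (muscle fibre libraries left out 0.13) and Gnas (array weights 0.25), and in muscle for Gnb1 (array weights 0.0664). With each mouse left out, the log2 fold changes in bone ranged from -0.68 to 0.10 for Gnb1, -0.36 to 0.64 for Gnb4, -0.31 to 0.37 for Gnai1, -0.65 to 0.14 for Gnai3, -0.35 to 0.15 for Gnas, -0.47 to 0.26 for Gnaq, -1.28 to -0.62 for Gnb2, -1.03 to -0.0524 for Gnb5, -1.25 to -0.23 for Gnai2 and -0.72 to -0.25 for Gna11, and in muscle from -0.12 to 0.14 for Gnb1 and -0.0227 to 0.17 for Gna11.

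The replicate numbers belong to different mice, and same-numbered libraries did not deviate together in every pair (correlations -0.15 to 0.39 in bone and -0.26 to 0.09 in muscle). With the replicate number as a block, 0 members were called in either tissue, where 0.783% of all genes were in bone and 2.33% in muscle. In muscle 1 member was under 0.05, Gnai3 (-0.61, unadjusted P = 0.0152 in limma), where 8.46% of all genes were. Over all genes, the alternatives called from 82 (genes averaging 1 CPM or more) to 1433 (voom on recovered reads) in bone against 249, and from 52 (log2(CPM + 1)) to 700 (voom on recovered reads) in muscle against 510. In bone, depth and background limit what can be seen of every member: none was over the background in all 8 libraries, all 10 were at or under it in BAY4 and 8 of 10 in VEH2, and Gnai1, Gnb4 and Gnb5 were in most libraries.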
